A study of Mus musculus with 6 samples.

Results

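Keratin, Perp and desmosomal transcripts were followed in muscle cell cultures from Sfpq-knockout and control mice. The 8 genes are the keratins Krt80, Krt8 and Krt18, the membrane protein gene Perp, and the desmosomal genes Jup, Dsp, Dsg2 and Pkp2, out of 34656 genes in the deposited values. They were chosen by name with the difference between the genotypes already known, so the differences of these 8 genes are described and not tested. Polyadenylated RNA was sequenced from primary myoblasts, the precursor cells of muscle fibres, which came from skeletal muscle (male mice, 1 month old). Both groups had first been grown up in F-10, with basic fibroblast growth factor at 2.5 ng/mL and 20% fetal bovine serum. They then spent 4 days in medium with 2% horse serum, in which such cells leave the cell cycle and fuse. The 2 groups are SFPQ_KO, from SfpqSM-KO mice (n = 3), and Cont, from control mice (n = 3), and both were taken under the differentiated condition. The sources used here do not give the driver that deletes Sfpq, the cells in which it acts or the alleles of the control mice. The labels do not say whether each library had its own mouse or culture, and the spread behind each p-value is that between these libraries, part of which may be technical.

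Keratins are intermediate filament proteins of epithelia. A type I and a type II keratin must pair to build a filament, and Krt8 with Krt18 is the pair of simple epithelia. Desmosomes are the junctions to which keratin filaments attach: desmogleins and desmocollins cross the membrane, plakoglobin (Jup) and plakophilins bind them on the inner side, and desmoplakin (Dsp) holds the filaments. Heart muscle also builds desmosomes and attaches desmin to them, whereas skeletal muscle fibres rely on desmin and costameres.

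Levels are in TPM, transcripts per 1000000. Between 12216 and 12484 genes per library reached 1 TPM, and the read depth of the libraries is unknown because TPM keeps no record of it. Sfpq stood at 18.28, 19.30 and 14.06 TPM in the knockout libraries and at 48.64, 60.48 and 49.90 TPM in the control libraries, so each knockout library lay below each control library (log2 difference −1.57, SE 0.15, limma adjusted p = 0.0531). The most abundant gene was Acta1 or H19 in each library. The 14 genes of differentiated muscle that were listed summed to between 81289 and 86239 TPM in knockout and between 74030 and 84310 TPM in control. The filter on low values (3 or more libraries at 1 TPM) left 12461 genes. Limma's test on log2(TPM + 1), adjusted by Benjamini and Hochberg's method, called none of them at 0.05 (0 higher, 0 lower; 0% each way; without trend 1 and 1), and 0.0531 was its smallest adjusted p. At an unadjusted p under 0.05, limma gave 334 higher (2.68%) and 1199 lower (9.62%), a split that became 787 and 657 after median-of-ratios scaling.

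Krt8 and Krt18 lie close together on chromosome 15, and their upstream sequences are shown with that of Jup because these are the keratin pair and the most abundant of the 8 genes. Krt8 (chromosome 15, 101996711 to 102004342, minus strand) and Krt18 (chromosome 15, 102028216 to 102032026, plus strand) are separated by 23.87 kb. Krt80 (chromosome 15, 101348315 to 101370162, minus strand) lies 627 kb from Krt8. Jup lies on chromosome 11 from 100368856 to 100397839, on the minus strand. The sequences are RefSeq's, on GRCm38.p6, in a supplied table that was matched for 4 of the 8 genes, and are written 5′ to 3′ on the gene's strand. They end before the gene's span in RefSeq and in GENCODE M21. Capitals mark a GC box, GGGCGG on either strand. The printed regions are chr15:102027966-102028179 (plus strand) for Krt18, chr15:102004483-102004592 (minus strand) for Krt8 and chr11:100397840-100398040 (minus strand) for Jup.
Krt18: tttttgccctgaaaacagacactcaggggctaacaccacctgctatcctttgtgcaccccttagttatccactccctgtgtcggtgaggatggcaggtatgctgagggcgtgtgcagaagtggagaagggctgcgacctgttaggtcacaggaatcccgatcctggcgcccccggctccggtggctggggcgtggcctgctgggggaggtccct
Krt8: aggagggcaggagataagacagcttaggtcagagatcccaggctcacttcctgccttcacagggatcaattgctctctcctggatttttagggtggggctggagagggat
Jup: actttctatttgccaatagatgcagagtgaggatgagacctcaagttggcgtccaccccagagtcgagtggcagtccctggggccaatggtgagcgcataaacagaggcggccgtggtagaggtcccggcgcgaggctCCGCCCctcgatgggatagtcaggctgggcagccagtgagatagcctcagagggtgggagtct
The 250 bases before the start that the table uses were searched on both strands for 4 motifs that do not overlap here: the GC box, the TATA box TATAAA, the AP-1 letters TGANTCA and the E-box CAGCTG. Jup held 2 GC boxes, beginning 112 and 42 bases before that start, and Dsp held 4. The last 49 bases of the Jup window, with the box at 42, lie inside the span of Jup in RefSeq and are not printed. Krt8 and Krt18 held none of the 4 motifs, and Jup and Dsp held none of the other three. Of 32851 such windows of mouse genes, 32.7% hold a GC box, 12.4% TATAAA, 6.75% TGANTCA and 13% CAGCTG. These matches describe the letters of the windows only.

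Krt80, Krt18 and Perp were the genes whose knockout libraries all lay above all control libraries, 3 of the 6 genes that met the filter on low values. Of all 12461 tested genes 4.27% were separated in that direction, and the members' count is given as a description, since this difference was used in choosing them. Perp met the filter through its knockout libraries alone, so its groups could not have overlapped. In bulk RNA a change in the number of cells that hold a transcript and a change in the amount per cell cannot be told apart.

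**Figure D1:**
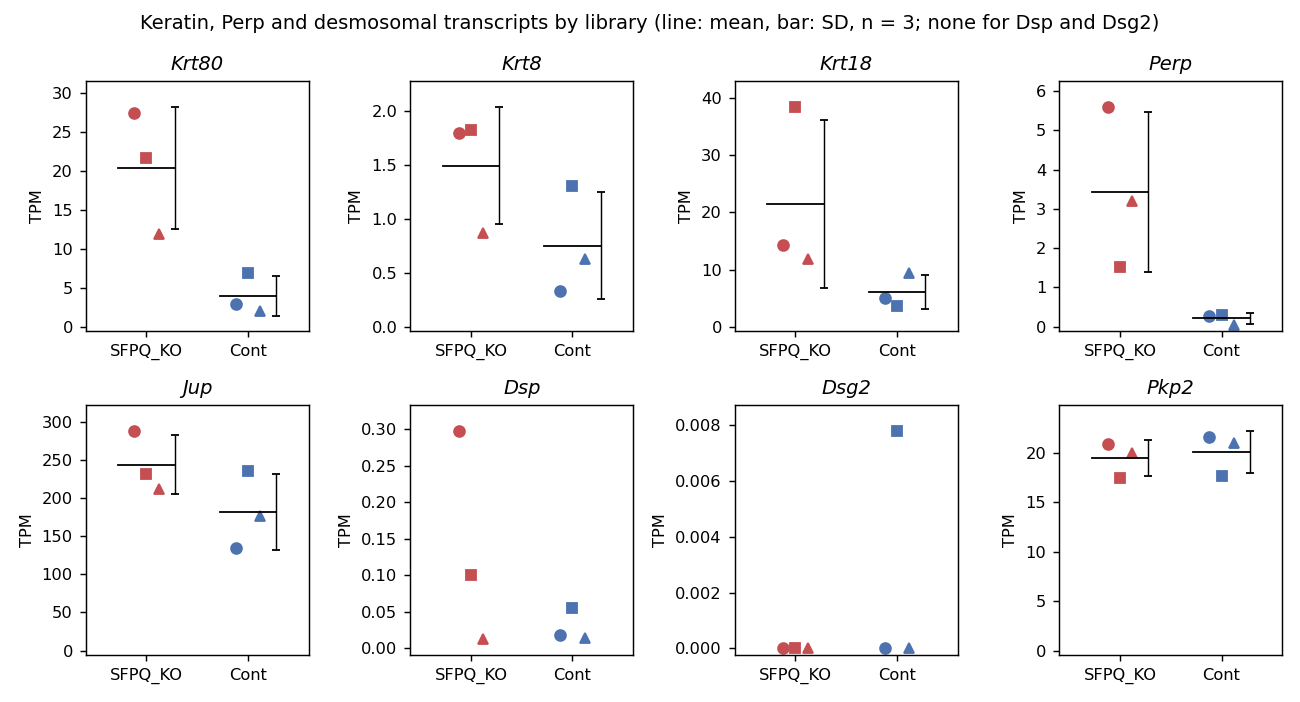
TPM of each of the 8 genes in each library, by group, on linear axes that start just below 0. Points are libraries (circle, square and triangle for replicates 1, 2 and 3), lines are means and bars SD (n = 3, not drawn for Dsp and Dsg2). Krt80, Krt18 and Perp are separated between the groups, Krt8 and Jup overlap, Pkp2 is near 20 TPM in both, and Dsp and Dsg2 are near 0.

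Krt80, a type II keratin found in many kinds of epithelium, was at 27.38, 21.66 and 11.91 TPM in the knockout libraries. In the control libraries it was at 2.95, 6.84 and 2.07 TPM. The lowest knockout library stood above the highest control library, and control replicate 2 was the highest of its group. The means were 20.32 ± 7.82 and 3.95 ± 2.53 TPM (SD, n = 3), and the knockout mean was 5.14 times as high. On the log2(TPM + 1) scale, which understates differences of low genes, the difference was 2.15 (SE 0.42). Only 1 tested gene had a larger positive difference. An antisense gene, Gm35853, and the miRNA gene Mir1941 overlap Krt80 on the opposite strand, and the sources used here do not say whether the authors' counting used strand.

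Krt18, the type I keratin of simple epithelia, was at 14.28, 38.34 and 11.79 TPM in knockout. Its control values were 5.04, 3.66 and 9.44 TPM. The groups did not overlap, but the gap between the lowest knockout library (11.79 TPM) and the highest control library (9.44 TPM) was small, and knockout replicate 2 stood far above the other two. The means were 21.47 ± 14.66 and 6.05 ± 3.01 TPM (SD, n = 3), with a log2 difference of 1.57 (SE 0.48). Without knockout replicate 2 the log2 difference was 1.07.

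Krt8, the type II partner of Krt18, stayed low. Its knockout values were 1.79, 1.82 and 0.87 TPM and its control values 0.328, 1.30 and 0.626 TPM, so that control replicate 2 lay above knockout replicate 3. The log2 difference was 0.52 (SE 0.26). Without control replicate 2, or without knockout replicate 3, the remaining libraries of Krt8 did not overlap. TPM is scaled by transcript length, so the partners can be compared within a library: Krt18 was 8, 21.02 and 13.55 times the level of Krt8 in knockout and 15.37, 2.83 and 15.07 times in control. Over the 6 libraries the log2 levels of the pair had a Pearson r of 0.59, and Krt18 ranked 1971 of 12460 other tested genes by likeness to Krt8, and Krt8 ranked 865 for Krt18. A processed pseudogene of Krt8 is annotated on chromosome 7, and how the authors' counting treated reads that match both is unknown. The noncoding gene Gm36026 overlaps Krt8 on the opposite strand.

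Perp encodes a membrane protein with 4 membrane spans that is found in desmosomes and is a known target of p53 and p63. It was at 5.58, 1.51 and 3.21 TPM in the knockout libraries. In control it was at 0.287, 0.308 and 0.047 TPM, so each control library was below the filter of 1 TPM. Perp entered the test through its knockout libraries alone, and a gene that enters that way has to differ. The log2 difference was 1.77 (SE 0.34), while the ratio of the mean TPM was 16.05. The size depended on the pseudocount, with a log2 difference of 3.45 at 0.1 and 0.67 at 5.

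The desmosomal plaque genes did not share one pattern. Jup (plakoglobin), an armadillo protein of desmosomes and adherens junctions and a relative of β-catenin, was by far the most abundant of the 8 genes. It was at 288, 232 and 212 TPM in knockout and at 135, 235 and 176 TPM in control. Control replicate 2 lay above knockout replicates 2 and 3, so the groups overlapped. The log2 difference was 0.45 (SE 0.21), and it was 0.25 without control replicate 1 and 0.65 without control replicate 2. After median-of-ratios scaling the groups of Jup no longer overlapped. Against β-catenin (Ctnnb1) in the same library, Jup stood at 1.20, 1.08 and 1.03 times its TPM in knockout and at 0.698, 0.877 and 0.853 times in control. Ctnnb1 itself had means of 221 ± 17.00 TPM (knockout) and 222 ± 39.78 TPM (control; SD, n = 3; log2 difference 0.00, limma adjusted p = 0.998), and was picked for this ratio after its values were seen. Against Pkp2 in the same library, Jup stood at 13.76, 13.34 and 10.59 times its TPM in knockout. In control that ratio was 6.26, 13.27 and 8.35, so control replicate 2 lay above knockout replicate 3 and the groups overlapped.

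Pkp2 (plakophilin 2), a plaque protein of heart desmosomes and of simple epithelia (chromosome 16, 16213345 to 16272712), was nearly level. It was at 20.91, 17.41 and 20.02 TPM in knockout and at 21.55, 17.68 and 21.02 TPM in control. The groups overlapped fully, and the log2 difference of −0.04 (SE 0.12) turned to 0.04 after median-of-ratios scaling and to 0.03 after quantile normalization. The means were 19.45 ± 1.82 and 20.09 ± 2.10 TPM (SD, n = 3).

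Dsp and Dsg2, which encode desmoplakin and the cadherin desmoglein 2, were at or near 0. Dsp (chromosome 13, 38151294 to 38198577) was at 0.298, 0.1 and 0.013 TPM in knockout and at 0.019, 0.056 and 0.014 TPM in control. Dsg2 (chromosome 18, 20558074 to 20604526) was listed at 0 in 5 libraries and at 0.0078 TPM in control replicate 2. Both stayed below the filter in every library and were not tested. Without read depth, how far such values lie from 0 is unknown. The 72 ribosomal protein genes had 0 values of 0 in each library. From start to end the 8 genes span 3.81 kb (Krt18) to 59.37 kb (Pkp2).

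**Figure D2:**
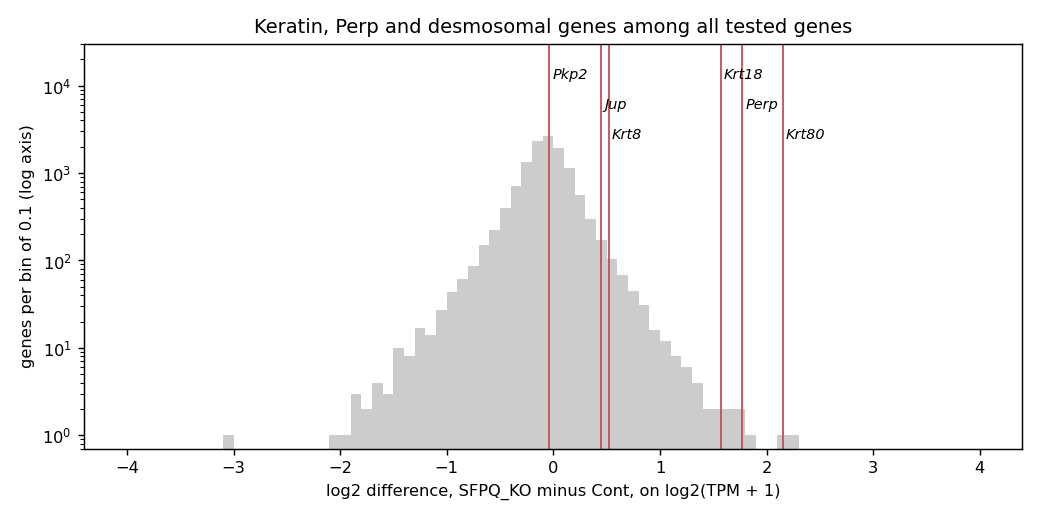
Histogram of the log2 difference, SFPQ_KO minus Cont on log2(TPM + 1), of 12461 tested genes in bins of 0.1 with a log count axis. Red lines mark the 6 keratin, Perp and desmosomal genes that met the filter: Pkp2 at −0.04, Jup at 0.45, Krt8 at 0.52, Krt18 at 1.57, Perp at 1.77 and Krt80 at 2.15, while the median of all genes is −0.07.

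Few other keratins were present. Of 53 keratin genes looked up, 45 stayed under 1 TPM in every library and 23 were listed at 0 in all of them. The 8 that reached 1 TPM somewhere were Krt8, Krt80 and Krt79 of type II and Krt10, Krt18, Krt19, Krt31 and Krt33b of type I, of which Krt79 was picked after its values were seen. Limma tested the 4 type I keratins that are not among the 8 genes and called 0 in either direction, also at an unadjusted p under 0.05, with adjusted p from 0.761 to 0.917. Their median log2 difference was −0.10, against −0.07 over all genes, and over the alternatives it ran from −0.35 to 0.12.

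Krt19, a type I keratin of simple epithelia and mesothelium, was at 7.80, 15.02 and 2.76 TPM in knockout and at 5.77, 2.77 and 11.29 TPM in control. Its highest library in each group, knockout replicate 2 and control replicate 3, was also the highest for Krt18. The hair keratin Krt31 was at 2.28 ± 1.79 and 3.71 ± 3.03 TPM and Krt33b, another hair keratin, at 1.71 ± 1.17 and 2.00 ± 1.41 TPM (knockout and control, SD, n = 3). Krt10, the type I keratin of upper epidermis, varied least, at 2.50 ± 0.281 and 2.63 ± 0.479 TPM.

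Summed over the family, type II keratins stood at 29.93, 24.42 and 13.28 TPM in knockout and at 3.37, 10.16 and 3.29 TPM in control. Krt80 made up 88.69% to 91.50% of that sum in knockout and 63.01% to 87.52% in control. Type I keratins summed to 29.80, 62.35 and 18.14 TPM in knockout and to 24.54, 11.67 and 28.02 TPM in control, so the type I groups overlapped. Type I stood at 7.28 and 8.51 times type II in control replicates 1 and 3, but at 1.15 times in control replicate 2 and at 0.996, 2.55 and 1.37 times in the knockout libraries. Control replicate 2 thus lay within the range of the knockout libraries for this ratio. Desmin (Des), the muscle intermediate filament, exceeded all keratins together by 66.19 to 227 times in knockout and 178 to 233 times in control.

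**Figure D3:**
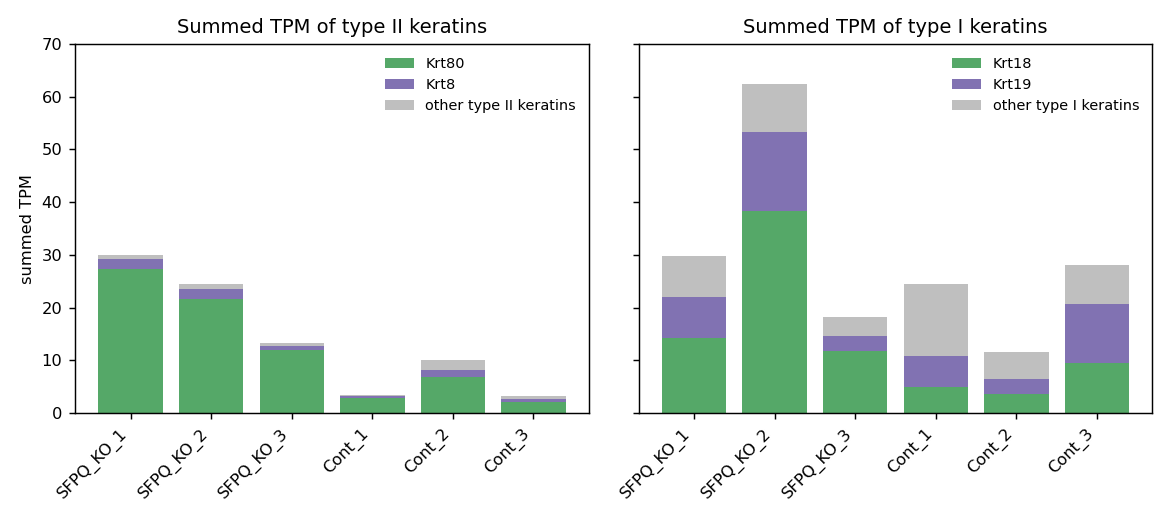
Stacked bars of the summed TPM of type II keratins (left) and type I keratins (right) in each library, on a shared linear axis. Krt80 fills most of each type II bar, with sums of 13.28 to 29.93 TPM in knockout and 3.29 to 10.16 TPM in control. Krt18 and Krt19 make up much of the type I bars, whose groups overlap.

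The other desmosomal genes were mixed. Of 9 desmosomal cadherins, 8 were under 1 TPM in every library and none met the filter. Dsc2 (desmocollin 2), named after its values were seen, was the one that reached 1 TPM, at 0.991, 0.864 and 2.48 TPM in the knockout libraries and 0.248, 0.943 and 0.648 TPM in control. In the plaque, Pkp1, a plakophilin known from epidermis, was at 8.44, 8.78 and 11.73 TPM in knockout and at 0.908, 11 and 14.67 TPM in control, where control replicate 1 stood apart (limma adjusted p = 0.782). Pkp4, an armadillo protein of several junction types, was at 26.19 ± 6.0 and 34.08 ± 6.63 TPM (SD, n = 3; limma adjusted p = 0.496). Limma called 0 of these 2 tested plaque genes, also at an unadjusted p under 0.05. The plakins Ppl and Evpl and the plakophilin Pkp3 stayed under 1 TPM.

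**Figure D4:**
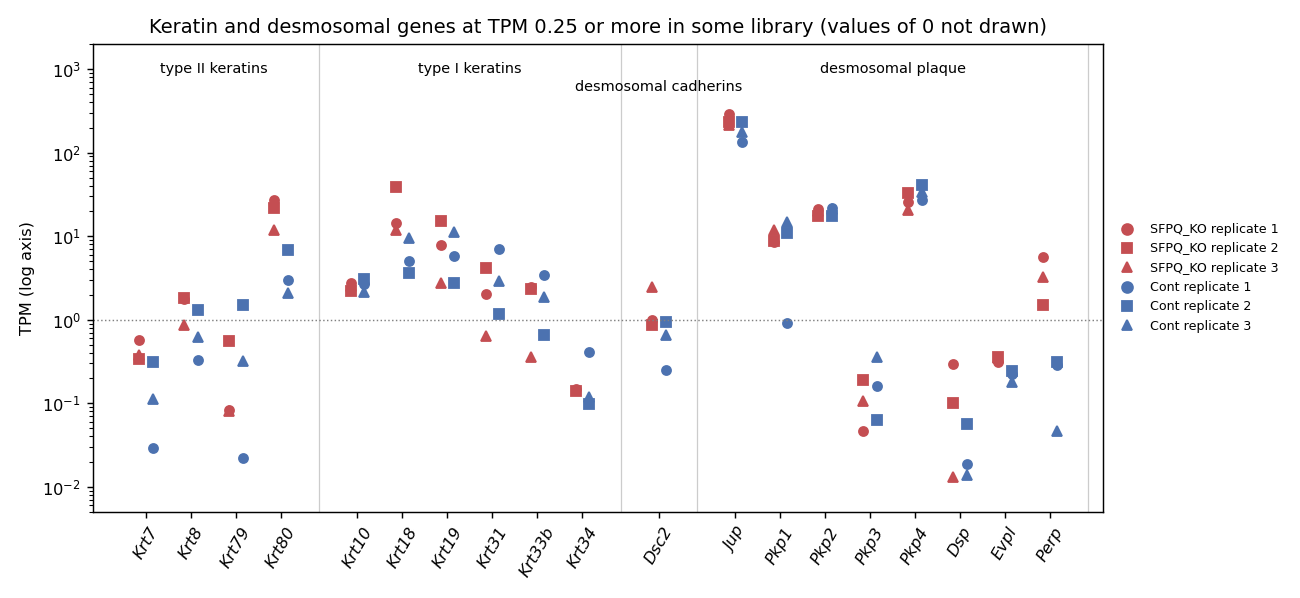
TPM on a log axis of the keratin and desmosomal genes that reached 0.25 TPM in some library, with red for SFPQ_KO, blue for Cont and a marker shape for each replicate number. The dotted line is 1 TPM. Jup lies above 100 TPM in every library, and Dsc2 is the sole desmosomal cadherin drawn.

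The adherens junction is the cadherin junction that myoblasts use. Of 14 tested genes of it, limma called 0 (1 higher and 1 lower at an unadjusted p under 0.05), and the median log2 difference was 0.03, which ran from −0.10 to 0.18 over the alternatives. Cdh1, epithelial E-cadherin, was low at 1.48, 1.40 and 1.05 TPM in knockout and 0.195, 0.558 and 0.590 TPM in control, without overlap (log2 difference 0.68, limma adjusted p = 0.248). Cdh13, a cadherin held by a lipid anchor, went the other way, at 102 ± 26.01 and 239 ± 36.45 TPM (SD, n = 3; log2 difference −1.24, limma adjusted p = 0.126). Afdn, an adaptor that binds nectins, and Nectin1 had limma adjusted p of 0.609 and 0.657. Cdh1, like Perp, met the filter through its knockout libraries alone, so its separation and its p support nothing. The groups of Cdh13 were separated as well, where 15.3% of all tested genes were separated in that direction.

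Proteins that bind keratins, and other intermediate filaments, had no gene past the test. Limma called 0 of 10 tested linker and hemidesmosome genes, also at an unadjusted p under 0.05, with a median log2 difference of 0.15. Itgb4, the integrin subunit of hemidesmosomes, was at 5.4 ± 1.01 and 3.55 ± 1.33 TPM (limma adjusted p = 0.445). Tchp (trichoplein), a keratin-binding protein, was at 10.79 ± 1.32 and 8.67 ± 0.569 TPM, and Fam83h, which binds keratins as well, at 7.90 ± 0.670 and 6.19 ± 0.910 TPM (limma adjusted p = 0.408 for both; SD, n = 3 throughout). Pnn (pinin), first described at desmosomes, was at 18.22 ± 1.14 and 20.05 ± 1.51 TPM. Among 8 tested intermediate filament genes other than keratins, limma called 0 (0 higher and 1 lower at an unadjusted p under 0.05), with a median of 0.32. Des was at 6549 ± 720 and 5283 ± 259 TPM and Lmnb1, a nuclear lamin, at 6.92 ± 1.41 and 9.80 ± 0.155 TPM (limma adjusted p = 0.430 and 0.324). Synm and Nes, which encode filament proteins that co-assemble with desmin or vimentin, had limma adjusted p of 0.417 and 0.503.

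The relatives of Perp and other p53 targets are given beside it, with no test of the difference between them and Perp. Of 5 tested tetraspan relatives limma called 0, also at an unadjusted p under 0.05, and Tmem47, Emp2, Emp1 and Emp3 had log2 differences of −0.16, 0.13, 0.21 and 0.06. Of 20 p53 targets limma called 0 (1 higher and 1 lower at an unadjusted p under 0.05), with a median of −0.02 that turned to 0.05 after median-of-ratios scaling. Fas, a death receptor, was at 8.05 ± 1.24 and 5.59 ± 0.801 TPM (log2 difference 0.46, limma adjusted p = 0.329). Phlda3, an inhibitor of Akt signalling, was at 856 ± 98.83 and 1035 ± 40.78 TPM (log2 difference −0.28, limma adjusted p = 0.385). Tigar and Sesn2, which act in metabolism and stress, had log2 differences of −0.38 and −0.30. Trp63, which encodes p63, was at 26.50 ± 3.05 and 31.21 ± 6.80 TPM (SD, n = 3; limma adjusted p = 0.631).

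Markers of epithelium and of other cell types were measured in the same libraries, since keratins and desmosomes are typical of epithelial cells. Of 20 epithelial markers 15 stayed under 1 TPM in every library, and the list summed to 17.71 to 30.03 TPM in knockout and 14.68 to 20.18 TPM in control. Most of that sum was Marveld2, a tight junction protein (13.95 ± 4.76 and 11.57 ± 1.88 TPM; SD, n = 3), and Grhl3, a transcription factor of surface epithelium (3.67 ± 1.06 and 2.74 ± 1.07 TPM). The defining marker Epcam, named with the markers at 0 that follow after their values were seen, was at 0.084 TPM in knockout replicate 1 and listed at 0 in the other two knockout libraries, with 0.022, 0.022 and 0.021 TPM in control. Limma called 0 of 3 tested epithelial markers (1 higher at an unadjusted p under 0.05: Cdh1, which entered the test through its knockout libraries alone). Of the epidermal markers Krt5, Krt1, Krt15 and Krt6a were listed at 0 in every library, and the list of 12 summed to 27.61 to 34.45 TPM in knockout and 29.41 to 43.16 TPM in control. Trp63 alone made up most of that epidermal sum (group means 26.50 and 31.21 TPM, knockout first). Sfn, an epidermal 14-3-3 protein, was at 1.69 ± 0.531 and 0.809 ± 0.308 TPM without overlap (limma adjusted p = 0.360). The gap between its groups was small and lay near the filter of 1 TPM, which its knockout libraries were enough to meet. Separation in that direction held for 4.27% of all tested genes. Trp63 and Krt10, the other tested markers of the epidermal list, had log2 differences below 0.

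The mesothelial list summed to 130, 242 and 68.38 TPM in knockout and to 47.23, 132 and 99.65 TPM in control, nearly all of it mesothelin (Msln), at 121, 227 and 65.45 TPM in knockout and 40.93, 128 and 87.63 TPM in control. Knockout replicate 2 was the highest library for Msln, as for Krt18 and Krt19. Among the control libraries, replicate 2 was the highest for Msln but the lowest for Krt18 (3.66 TPM) and Krt19 (2.77 TPM). Of the untested mesothelial markers, named after their values were seen, Wt1 and Upk3b were listed at 0 in every library. Upk1b was at 0.881, 0.141 and 0.144 TPM in the knockout libraries and at 0.515, 1.48 and 0.727 TPM in the control libraries, and limma called 0 of 2 tested markers of that list, also at an unadjusted p under 0.05. The part of Msln-expressing cells in the Krt18 values was not tested. Endothelial markers summed to 1.80 to 2.97 TPM in knockout and 2.41 to 3.17 TPM in control, Schwann cell markers to 1.09 to 1.15 and 1.32 to 1.44 TPM, and immune markers to 2.45 to 4.15 and 1.53 to 2.72 TPM. Fibroblast markers summed to 171 to 226 TPM in knockout and 206 to 305 TPM in control, led by Col3a1. Of 5 tested fibroblast markers limma called 0 (0 higher and 2 lower at an unadjusted p under 0.05), and 4 had log2 differences below 0 and 1 above. Their median log2 difference was −0.34, against −0.07 over all genes, and it ran from −0.63 to −0.26 over the alternatives. The groups of 2 of them were separated with lower knockout values, as were 15.3% of all tested genes. Limma called 0 of 6 tested markers of smooth muscle and pericytes, also at an unadjusted p under 0.05, with a median log2 difference of −0.09.

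Of the muscle markers themselves, limma called 0 of 14 tested genes of differentiated muscle (0 higher and 1 lower at an unadjusted p under 0.05), with a median log2 difference of 0.15. The lower gene, named after its values were seen, was the fast myosin gene Myh1, at 2832 ± 201 and 6335 ± 1956 TPM without overlap (SD, n = 3; log2 difference −1.11, limma adjusted p = 0.185). Of all tested genes 15.3% were separated with lower knockout values and 4.27% with higher ones. Acta1 (30842 ± 3210 and 24426 ± 1456 TPM) and Des were separated with higher knockout values (limma adjusted p = 0.498 and 0.430). Of 6 tested myoblast markers limma called 0 (0 higher and 1 lower at an unadjusted p under 0.05), with a median of −0.25. That gene, also named after its values were seen, was the myogenic factor Myf5, at 23.51 ± 10.84 and 36.17 ± 3.42 TPM (SD, n = 3; limma adjusted p = 0.394). Of these 6 markers 4 had log2 differences below 0 and 2 above 0, Myod1 at 0.42 and Cdh15 at 0.23. The part of these muscle and myoblast differences in the values of the 8 genes was not tested.

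By library, Krt80 followed Krt8, Perp and Jup more closely than Krt18. Over the 6 libraries Pearson r of the log2 levels was 0.88 for Krt80 with Krt8, 0.87 with Perp, 0.84 with Jup and 0.66 with Krt18. Krt8 and Jup had an r of 0.93, and the values of Pkp2 with the others ran from −0.63 to 0.06. These 15 values describe 6 libraries that fall into 2 groups, and they share the genotype difference that chose the genes. The genes outside the 8 whose levels were most like the mean standardised profile of the 6 tested members were Tmem53, Dnttip1, Hmbox1, Gps2 and Morn2, with r from 0.976 to 0.988 over 6 libraries among 9581 candidates. That profile holds the same genotype difference, and these genes were picked as its closest matches, so their r values are a description only. In each of them the knockout libraries all lay above the control libraries, as in 4.27% of all tested genes. Tmem53 was at 31.65 ± 4.09 and 20.13 ± 2.13 TPM (SD, n = 3), and Gps2 at 57.08 ± 1.24 and 52.01 ± 0.726 TPM.

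Genes of heart cell junctions and of the cardiomyopathies linked to them, where Pkp2, Dsp, Dsg2 and Jup are also known, gave 13 tested genes outside the 8. Limma called 0 (0 higher and 1 lower at an unadjusted p under 0.05), with a median log2 difference of 0.05 that ran from −0.08 to 0.15 over the alternatives. Pln (phospholamban), the inhibitor of the calcium pump, was at 2.96 ± 1.82 and 7.80 ± 3.12 TPM (SD, n = 3; limma adjusted p = 0.370), and Rbm20, a splicing regulator of titin, at 28.41 ± 2.2 and 33.77 ± 2.90 TPM (limma adjusted p = 0.408).

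The log2 differences of the 6 tested genes were recomputed under other processing.

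**Figure D5:**
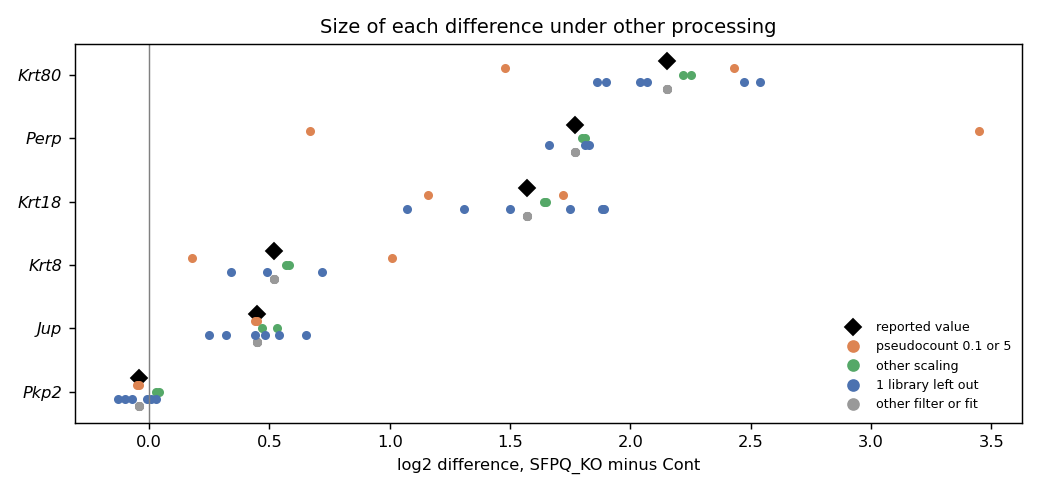
Log2 difference, SFPQ_KO minus Cont, of the 6 tested members as reported (black diamonds) and under other processing (dots by kind of change). Alternatives in which a gene fell below the filter are not drawn. Krt80 ranges from 1.48 to 2.54, Krt18 from 1.07 to 1.89, Perp from 0.67 to 3.45, Krt8 from 0.18 to 1.01 and Jup from 0.25 to 0.65, while Pkp2 lies on both sides of 0.

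Krt80 and Krt18 stayed above 1 on the log2 scale in each of 15 alternatives. Krt8 and Perp could be computed in 11 alternatives each. Leaving out certain libraries took them below the filter, and they did not meet the stricter filter of a mean TPM of at least 5. Krt8 stayed above 0 there. Perp did as well, but it met the filter through its knockout libraries alone, so its sign could not have changed.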

How the data were processed

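The authors deposited TPM for RefSeq accessions, in a table per library. The submitters' processing notes name STAR 2.4.1d and mm10. The sources used here do not name a counting tool, an annotation or the strand setting. Of 34671 accessions, 30822 were named through RefSeq (GRCm38.p6) and 103 through GENCODE M21, and TPM was summed per symbol. Each of the 8 genes had 1 accession.

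Genes at a TPM of 1 or more in at least 3 libraries were fitted on log2(TPM + 1) with limma 3.58.1 (R 4.3.3, intensity trend, no block, 2-sided, Benjamini-Hochberg). On simulated data for this comparison over 12461 genes, the test recovered 69% of genes changed by 1 on the log2 scale and 89% of those changed by 2, with 9 false calls. The changes were placed only in genes with a mean log2(TPM + 1) above 2, which leaves out genes as low as Perp and Krt8. The simulated noise was normal and independent between genes, without shared deviations of a library, so the recovery in the real libraries is unknown. Tables and plots used Python 3.11.15. Alternatives covered the pseudocount, filter, scaling, fit, replicate block and each library left out.

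The 8 genes and the lists were chosen with earlier results of these data known. Named genes are the 8, Sfpq, the tested genes of each list that ranked first by p (4 at most) or, for cell types, by TPM (3 at most), and the 5 most alike in profile, except where said.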

Additional observations from a re-analysis of the deposited data

How the results depend on the processing

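No gene passed the genome-wide test as reported. With a pseudocount of 5 limma called 2 genes higher and 11 lower, with a mean TPM of at least 5 it called 1 and 6, without trend 1 and 1, and at an adjusted p under 0.1 it called 7 and 21. In the other alternatives, each library left out included, it called 0 in each direction. The count of members whose groups did not overlap was checked under alternatives added after seeing the data, over the 12461 genes that met the filter with all 6 libraries. It ran from 3 to 5 with 1 library left out: it was 5 without control replicate 2 (Krt80, Krt8, Krt18, Perp and Jup), where 12.3% of the 12461 genes were so separated, and 4 without knockout replicate 3, which added Krt8 (7.09%). It was 3 without knockout replicates 1 or 2 (6.13% and 8.69%) or control replicates 1 or 3 (5.64% and 6.72%). It was 4 after median-of-ratios scaling (9.93%) and 3 after quantile normalization (8.71%). Each of these counts includes Perp, which met the filter through its knockout libraries alone. The deviations of same-numbered libraries from their group means had correlations of −0.26, −0.25 and 0.0487. The labels state no pairing, and so few libraries cannot decide whether the numbers pair them. The replicate block gave 0 calls in either direction, with 224 higher and 835 lower at an unadjusted p under 0.05, and left each log2 difference as it was. Knockout replicate 1 and control replicate 2 deviated together (r = 0.412 across genes, which are not independent). The values of Perp, Krt8 and Dsp lie near the filter or below it, where the pseudocount sets the log2 difference. For the size of Krt80, a pseudocount of 5 gave 1.48.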
